A study of Mus musculus with 4 samples.

Results

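Interferon-stimulated genes other than the guanylate-binding and immunity-related GTPases and the p200 family were examined in T29, a mouse thymic lymphoma cell line. A list of 38 genes was taken, and a gene was measured where the platform annotation paired a probe set with that gene alone. Where a gene had several probe sets, the brightest on average over the 4 arrays was used. By this rule 36 of the 38 were measured, among 18193 genes in all. Ifi44 had no such probe set, and the probe set of Isg15 also lists Gm9706, so neither entered the counts. Of the 36 genes, 28 of 30 listed belong to a class named here type I and 8 of 8 to a class named type II. The division is a convention, since Irf1, Cxcl10 and the antigen presentation genes also respond to type I interferon.

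The cells were exposed either to DMSO, the solvent (2 arrays), or to MRK003, an inhibitor of gamma-secretase (GSI, 2 arrays). The labels write the dose as 5 mM, a unit that could not be checked here and may be an error for a smaller one, and the time as 36 h, with identical wording on all 4 samples, so group membership rests on the sample titles. Gamma-secretase is the protease that releases the intracellular part of Notch receptors. The labels give no genotype, strain or clone history for T29, and do not state if replicates came from different cultures. The p-values therefore cover the spread among these 4 arrays alone, and that spread may be technical.

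Interferons are secreted antiviral cytokines. Type I interferons (interferon alpha and beta) signal through the receptor chains IFNAR1 and IFNAR2 and the kinases JAK1 and TYK2 to a complex that includes STAT2 and IRF9 and binds the interferon-stimulated response element (ISRE). Type II interferon (interferon gamma) signals through IFNGR1 and IFNGR2, JAK1 and JAK2, acts at the gamma-activated site (GAS) of promoters and induces IRF1 and genes of antigen presentation. Many of these genes also have a basal level without interferon, and in thymocytes and T cells the class I presentation genes are among them.

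Promoters are shown for Bst2, the gene with a promoter entry that passed the test described next, and for the 3 other holders of the ISRE core whose differences were largest in size, Cxcl10, Ifit3 and B2m. RefSeq promoters of GRCm38.p6 were matched by symbol for 26 of the 38 genes. The ISRE core searched was GAAA, then 2 bases of any kind, then GAAA again, on both strands and within the 250 bases before each annotated start, and a gene with several starts counted once. It was present in 10 of the 26 genes (38.5%) and in 936 of 27025 genes with a promoter entry (3.46%). The sequences below run 5′ to 3′ on the gene's strand, with matches to this core in capitals. Bst2 lies on the minus strand (chr8:71537473-71537722) and Cxcl10 likewise (chr5:92348890-92349139). Ifit3 (chr19:34583279-34583528) and B2m (chr2:122147437-122147686) lie on the plus strand.
Bst2: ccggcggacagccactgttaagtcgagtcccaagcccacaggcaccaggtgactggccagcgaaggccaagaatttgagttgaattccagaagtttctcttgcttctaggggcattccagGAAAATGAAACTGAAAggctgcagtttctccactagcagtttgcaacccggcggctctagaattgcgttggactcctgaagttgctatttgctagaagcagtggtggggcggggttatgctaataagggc
Ifit3: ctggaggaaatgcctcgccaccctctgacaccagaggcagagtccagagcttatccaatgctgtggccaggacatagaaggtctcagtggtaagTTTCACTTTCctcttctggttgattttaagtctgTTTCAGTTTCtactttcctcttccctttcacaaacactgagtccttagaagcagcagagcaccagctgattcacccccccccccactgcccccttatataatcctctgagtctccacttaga
B2m: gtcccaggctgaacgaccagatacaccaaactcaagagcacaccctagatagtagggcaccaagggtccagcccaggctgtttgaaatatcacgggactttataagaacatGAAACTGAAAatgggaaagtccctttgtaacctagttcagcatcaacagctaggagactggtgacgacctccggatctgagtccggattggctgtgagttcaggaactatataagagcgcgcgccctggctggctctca
Cxcl10: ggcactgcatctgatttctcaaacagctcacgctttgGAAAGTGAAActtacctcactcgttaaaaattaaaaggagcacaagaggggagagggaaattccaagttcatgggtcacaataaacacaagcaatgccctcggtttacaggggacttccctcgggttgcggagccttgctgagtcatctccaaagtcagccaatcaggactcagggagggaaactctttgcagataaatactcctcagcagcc
In Bst2 the matches overlap each other, and they lie 115 to 130 bases before the start. In Ifit3 the matches are on the opposite strand. Of the 9 measured genes with a match, Bst2 passed the test, and the other 8 differed between GSI and DMSO by -0.16 (Cxcl10) to 0.14 (Ifit3) on the log2 scale. The GAS palindrome TTCNNNGAA was present in 6 of the 26 genes (23.1%; 8.13% of all genes), among them Bst2, where it overlaps the ISRE core, Irf1 and Irf8. The core bound by RBPJ, the DNA-binding partner of Notch, TGGGAA, was present in 10 of the 26 (38.5%, beside 24.1% of all genes). These were 6 of 20 type I class genes (30.0%) and 4 of 6 type II class genes (66.7%), B2m, Irf8, Tap1 and Tapbp. By class, the ISRE core was present in 8 of 20 type I and 2 of 6 type II genes (40.0% and 33.3%). The GAS palindrome was present in 4 of 20 and 2 of 6 (20.0% and 33.3%). A match is a description of the letters and does not show binding.

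With the inhibitor, 2 of the 36 genes passed, both upwards and both in the type I class: Bst2 and Mx1. The type I class as a whole was spread around 0, with a median difference of 0.05 on the log2 scale, while the type II class had a median of 0.30, led by the peptide loading genes Tapbp and Tap2. The median over all genes was -0.01. Values are log2 RMA expression per probe set, differences are GSI minus DMSO with the standard error (SE) of limma's moderated fit, and a gene passed at a Benjamini-Hochberg adjusted p under 0.05 over all 18193 genes. Of all genes 4.12% passed, 2.56% upwards and 1.56% downwards. In limma 0 genes of the list passed downwards.

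With an unadjusted p below 0.05, 11 of the 36 were higher (30.6%; 10.8% of all genes) and 3 were lower (8.33%; 10.7% of all genes). By class these were 7 higher and 3 lower of 28 in the type I class, and 4 higher and 0 lower of 8 in the type II class. Both GSI arrays lay above both DMSO arrays in 14 of the 36 (38.9%; 23.7% of all genes) and below in 6 (16.7%; 27.7% of all genes). In the type I class these counts were 9 above and 5 below, and in the type II class 5 above and 1 below. The mean was higher with GSI in 15 of 28 type I class genes (53.6%) and in 7 of 8 of the type II class (87.5%), against 47.0% of all genes. The difference between the classes was not tested, since genes are not replicates. With 2 arrays per group an exact two-sided permutation test of a single value cannot go below 0.333.

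**Figure D1:**
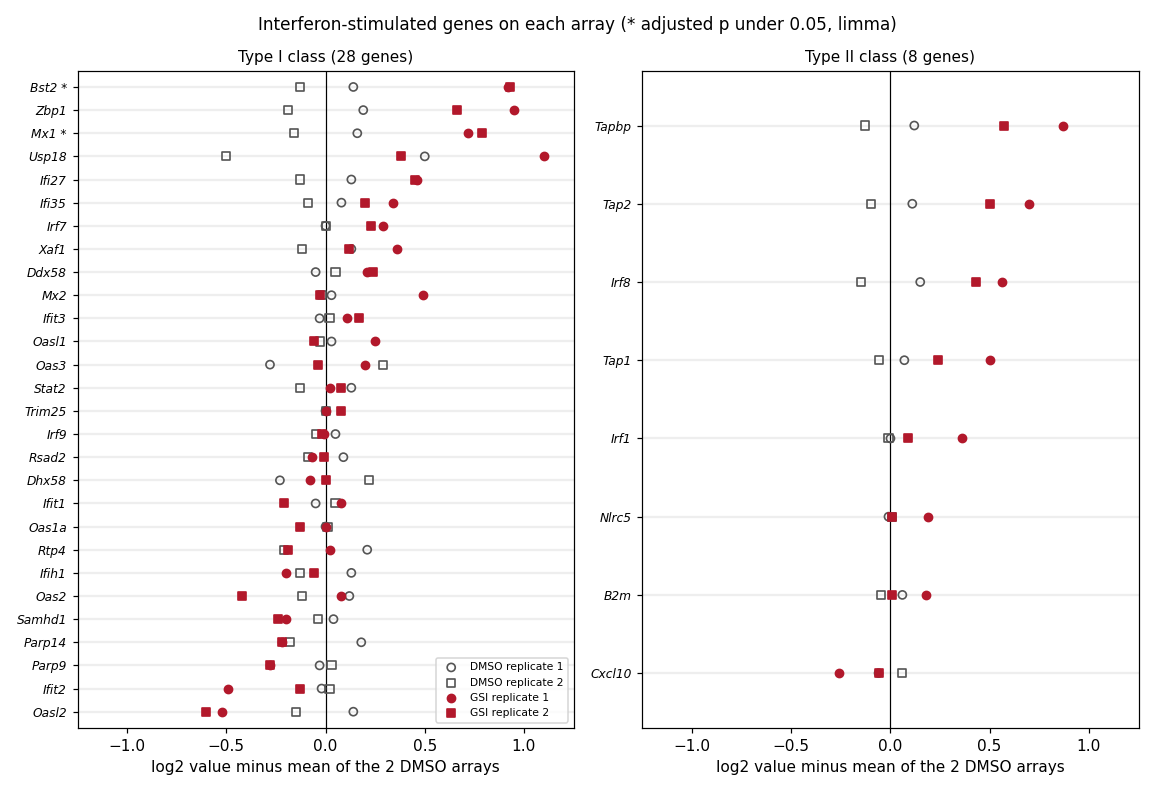
Log2 value of each of the 36 genes on each array, minus the mean of the 2 DMSO arrays (x axis, log2), with genes on the y axis ordered by difference within the type I class (left) and the type II class (right). Open symbols are DMSO and filled symbols GSI, circles replicate 1 and squares replicate 2. Bst2 and Mx1 (asterisks) have both GSI symbols far right of both DMSO symbols, Usp18 has widely spaced symbols in both groups, and most type I class genes lie near 0.

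Bst2 encodes tetherin, a membrane protein that holds budding enveloped viruses at the cell surface. Its probe set read 8.71 and 8.44 with DMSO and 9.49 and 9.50 with GSI. The GSI arrays were nearly equal and both stood above the higher DMSO array by more than the gap between the DMSO arrays. The difference was 0.92 ± 0.11 (SE; 1.89-fold; limma, adjusted p = 0.0173). With the replicate number as a block Bst2 did not pass (adjusted p = 0.0598). When 1 array was left out, the difference was 0.78 to 1.05. Such fits leave 1 array in a group, and almost no gene of the series passes in them. They therefore cannot tell if Bst2 would pass.

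Bst2 is also a marker of plasmacytoid dendritic cells. The other 4 dendritic cell markers (Itgax, Flt3, Siglech and Zbtb46) had a mean log2 level of 5.23 and 5.30 with DMSO and 5.26 and 5.30 with GSI, and 0 of the 4 passed. They did not move together. Flt3 read 5.75 and 5.94 with DMSO and 6.17 and 6.39 with GSI, so that both GSI arrays were higher (0.44; adjusted p = 0.108). Itgax read 4.25 and 4.33 with DMSO and 4.08 and 4.05 with GSI, so that both were lower (-0.23; adjusted p = 0.198). Siglech, a marker of plasmacytoid cells, read 5.01 and 4.83 with DMSO and 4.83 and 4.97 with GSI, and Zbtb46 differed by -0.13, both with overlapping arrays. Their part in the Bst2 value was not tested. In bulk RNA, a change in the number of cells of a type and a change in RNA per cell cannot be told apart.

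Mx1 belongs to the dynamin-like Mx proteins, which block the replication of influenza-type viruses in the nucleus. The RefSeq annotation of GRCm38.p6, a C57BL/6J genome, lists Mx1 as a transcribed pseudogene, so the measured transcript need not give a functional protein. It read 5.25 and 4.93 with DMSO and 5.81 and 5.88 with GSI. The groups did not overlap, and the difference was 0.75 ± 0.13 (SE; 1.69-fold; limma, adjusted p = 0.0386). With all probe sets tested singly it missed the threshold (adjusted p = 0.0686), as it did with the replicate number as a block (0.104). With 1 array left out the difference was 0.59 to 0.91. Its relative Mx2 read 5.05 and 5.00 with DMSO and 5.51 and 4.99 with GSI, so a single GSI array was high and the groups overlapped (0.23 ± 0.18 SE). The Mx genes are similar in sequence, and the share each contributes to a probe set is uncertain.

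Among the transcription factors through which type I interferon acts, none passed. Stat2, which carries the transactivation domain of the ISRE-binding complex, differed by 0.05 ± 0.11 (SE), and Irf9, its DNA-binding subunit, by -0.01 ± 0.09. The dimmer of the 2 Stat2 probe sets read 5.67 and 5.65 with DMSO and 6.05 and 5.88 with GSI, a difference of 0.30 (adjusted p = 0.231 among all probe sets). Irf7, the factor that amplifies interferon alpha production, read 3.83 on both DMSO arrays and 4.12 and 4.06 with GSI. This was a difference of 0.26 ± 0.08 (adjusted p = 0.150) with no overlap, below the median probe set value of 4.88, in a range where RMA values compress differences.

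The sensors of foreign nucleic acid were mixed. Zbp1, a sensor of left-handed RNA and DNA that can start necroptosis, read 5.96 and 5.58 with DMSO and 6.72 and 6.43 with GSI. The groups were well apart, and the difference of 0.81 ± 0.16 (1.75-fold) narrowly missed the threshold (limma, adjusted p = 0.0558). Zbp1 passed without the dim genes, with centred arrays, with cyclic loess and with a robust intensity-trend prior (adjusted p = 0.0140 to 0.0469). Its difference was 0.62 to 1.0 with 1 array left out. Zbp1 did not pass with every probe set tested (0.0945) or with the replicate number as a block (0.0514). It also did not pass with its probe sets averaged, where the difference was 0.48 (0.102). The other Zbp1 probe set did not show this difference, at 5.51 and 5.15 with DMSO and 5.47 and 5.50 with GSI (0.15; adjusted p = 0.653 among all probe sets). Ddx58, encoding the RNA sensor RIG-I, read 4.99 and 5.09 with DMSO and 5.25 and 5.28 with GSI (0.23 ± 0.09; adjusted p = 0.210), and its 2 dimmer probe sets differed by 0.27 and -0.15. The Ddx58 probe sets thus differed in sign. The negative one read 3.71 and 3.78 with DMSO and 3.47 and 3.71 with GSI, and both dimmer ones lay below the median probe set value on every array. Ifih1, encoding the related helicase MDA5, differed by -0.13 with overlapping arrays. Dhx58, encoding the helicase LGP2, read 3.70 and 4.15 with DMSO and 3.85 and 3.93 with GSI (-0.04 ± 0.16 SE), and its other probe sets differed by -0.01 and 0.05. Trim25, the ubiquitin ligase that activates RIG-I, read 9.73 on both DMSO arrays and 9.73 and 9.81 with GSI (0.04 ± 0.08 SE), and its other probe sets differed by -0.05 and -0.25. The Dhx58 arrays overlapped, and the Trim25 probe sets differed in sign.

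The IFIT proteins bind viral RNA that lacks the host cap modification. Ifit2 read 7.77 and 7.81 with DMSO and 7.30 and 7.66 with GSI. Both GSI arrays were lower, but the gap between them exceeded the gap from GSI replicate 2 to the DMSO arrays (-0.31 ± 0.14 SE; adjusted p = 0.263). It was -0.13 without GSI replicate 1 and -0.49 without GSI replicate 2. Ifit1 and Ifit3 differed by -0.06 and 0.14, so the 3 genes did not move together.

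The 2′-5′ oligoadenylate synthetases activate RNase L, which degrades RNA in infected cells. Oas1a, Oas2, Oas3 and Oasl1 differed by -0.17 to 0.10, with overlapping arrays in each, and Oas1a belongs to a cluster of close copies that its probe set may also bind. Oasl2, a related gene, was the type I class gene with the most negative difference. It read 3.42 and 3.13 with DMSO and 2.76 and 2.68 with GSI (-0.55 ± 0.12 SE; limma, adjusted p = 0.0654), below the median probe set value on every array, so the size is uncertain. Oasl2 passed with probe sets averaged per gene (adjusted p = 0.0454) and under a robust intensity-trend prior (0.0316). It did not pass under the others that kept it and all 4 arrays (0.0521 to 0.113). With 1 array left out the difference was -0.7 to -0.41. Rsad2, encoding viperin, an enzyme that makes a chain-terminating nucleotide, read 5.61 and 5.43 with DMSO and 5.45 and 5.51 with GSI (-0.04 ± 0.10 SE). The GSI arrays lay within the DMSO range. Its 2 dimmer probe sets differed by 0.19 and 0.25, with adjusted p of 0.686 and 0.386 among all probe sets. Samhd1, which depletes deoxynucleotides, read 6.12 and 6.04 with DMSO and 5.88 and 5.84 with GSI (-0.22 ± 0.08 SE; adjusted p = 0.208), and its 4 other probe sets differed by -0.09 to 0.03.

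ISG15 is a ubiquitin-like protein that is attached to other proteins, and USP18 both removes it and blocks the type I receptor. Usp18 read 6.92 and 5.92 with DMSO and 7.52 and 6.80 with GSI. GSI replicate 2 lay below DMSO replicate 1, so the groups overlapped (0.74 ± 0.37 SE; limma, adjusted p = 0.320). The difference was 0.24 without DMSO replicate 2, 0.38 without GSI replicate 1 and 1.24 without DMSO replicate 1. Its size thus depended on which array was left out. Between arrays of the same number Usp18 differed by 0.60 and 0.88, and with the replicate number as a block it did not pass (limma, adjusted p = 0.0837). The probe set listed for Isg15 and Gm9706 read 6.69 and 6.33 with DMSO and 5.95 and 5.92 with GSI. Both GSI arrays were lower (-0.57 ± 0.14 SE; adjusted p = 0.129 among all probe sets), and which of the genes it measures is uncertain.

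The remaining type I class genes gave small differences of both signs. Ifi27, encoding a small membrane protein, read 7.35 and 7.09 with DMSO and 7.68 and 7.67 with GSI (0.46 ± 0.11 SE; 1.37-fold; adjusted p = 0.0873), and its other probe set differed by 0.35. Without the dim genes Ifi27 passed (adjusted p = 0.0413), as it did with a robust intensity-trend prior (0.0320). Under the other alternatives with all 4 arrays it did not (0.0747 to 0.147). With 1 array left out it differed by 0.33 to 0.59. Ifi35 read 8.91 and 8.74 with DMSO and 9.17 and 9.03 with GSI (0.28 ± 0.10 SE; adjusted p = 0.205), and its 2 other probe sets differed by 0.06 and 0.14. Parp9, an ADP-ribosyltransferase family member that promotes interferon signalling together with the ubiquitin ligase DTX3L, went the other way. It read 8.63 and 8.69 with DMSO and 8.38 on both GSI arrays (-0.28 ± 0.08 SE; 1.21-fold; adjusted p = 0.129). Both GSI arrays were below both DMSO arrays in Parp9. Its relative Parp14 read 6.88 and 6.52 with DMSO and 6.48 on both GSI arrays (-0.22 ± 0.13 SE; adjusted p = 0.410), while its dimmer probe set differed by 0.14. The partner gene Dtx3l differed by -0.20 and did not pass. Rtp4, a chaperone of membrane receptors, read 4.58 and 4.16 with DMSO and 4.39 and 4.18 with GSI (-0.09 ± 0.16 SE), and its other probe set differed by 0.01. Its arrays overlapped, as did those of Xaf1, a proapoptotic gene (0.24).

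**Figure D2:**
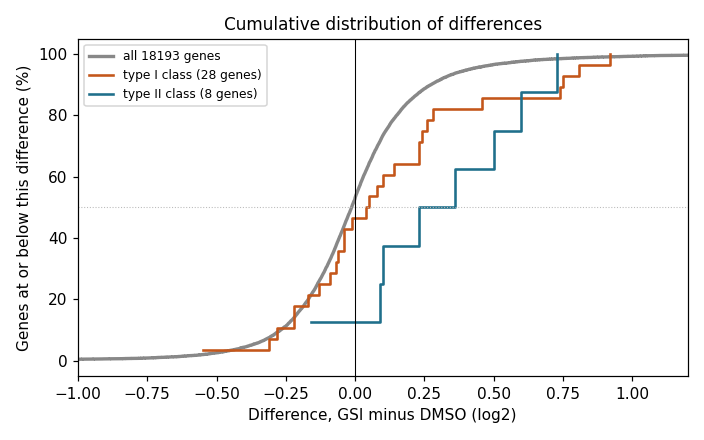
Cumulative distribution of the difference GSI minus DMSO (x axis, log2) as the percentage of genes at or below each value (y axis) for all 18193 genes, the 28 type I class genes and the 8 type II class genes. The type I curve crosses 50% near the curve of all genes (medians 0.05 and -0.01), and the type II curve lies to the right (median 0.30).

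In the type II class, the genes with the largest differences encode the machinery that loads peptides onto class I molecules. Tapbp encodes tapasin, which bridges class I molecules to the peptide transporter. It read 9.01 and 8.76 with DMSO and 9.76 and 9.46 with GSI. The arrays of the groups were well apart, and the difference of 0.73 ± 0.14 (SE; 1.65-fold) narrowly missed the threshold (limma, adjusted p = 0.0526). The other Tapbp probe set, at 7.15 and 6.93 with DMSO and 7.76 and 7.51 with GSI, gave a difference of 0.59.

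Tap2, a subunit of the peptide transporter, read 10.07 and 9.86 with DMSO and 10.66 and 10.46 with GSI (0.60 ± 0.12 SE; 1.51-fold; limma, adjusted p = 0.0544). Its partner subunit Tap1 read 8.30 and 8.17 with DMSO and 8.73 and 8.47 with GSI (0.36 ± 0.12 SE; 1.29-fold; adjusted p = 0.154). In both genes the GSI arrays lay above the DMSO arrays, and the 3 dimmer Tap1 probe sets differed by 0.02 to 0.11. Tapbp and Tap2 passed with probe sets averaged per gene, without the dim genes, with centred arrays, with cyclic loess and with a robust intensity-trend prior (adjusted p = 0.00648 to 0.0423). They did not pass with every probe set tested (0.0903 and 0.0959) or with the replicate block (0.0572 and 0.0792). With 1 array left out the difference was 0.57 to 0.88 for Tapbp and 0.49 to 0.7 for Tap2. Tap1 did not pass under any alternative tried, and its difference was 0.14 with its probe sets averaged. B2m, the invariant light chain of class I molecules, differed by 0.09 ± 0.10, with overlapping arrays near 12 on the log2 scale.

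In the order of protein-coding genes in GRCm38.p6, Psmb9, Tap1, Psmb8 and Tap2 follow each other. The immunoproteasome subunit genes Psmb9 and Psmb8, which interleave with the transporter genes, differed by 0.12 ± 0.11 and 0.15 ± 0.11, with overlapping arrays. Psmb9 read 10.12 and 9.93 with DMSO and 10.24 and 10.05 with GSI. Replicate 1 was higher than replicate 2 in both groups for all 4 of these neighbours. Nlrc5, the transactivator of class I genes, differed by 0.10, below the median probe set value.

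Irf8, a transcription factor of the IRF family best known from myeloid and B cells, read 7.37 and 7.07 with DMSO and 7.78 and 7.65 with GSI. The groups did not overlap (0.50 ± 0.13 SE; 1.41-fold; adjusted p = 0.0964), and the other Irf8 probe set gave the same difference of 0.50. Irf8 passed without the dim genes (adjusted p = 0.0475) and under a robust intensity-trend prior (0.0334). It did not pass under the others with all 4 arrays (0.0536 to 0.155). With 1 array left out the difference was 0.35 to 0.65. Markers of the cell types named were mostly dim: 0 of 3 B cell markers and 2 of 6 macrophage and monocyte markers had a mean above the median probe set value. Their mean log2 levels were 3.88 and 3.85 with DMSO and 3.78 and 3.82 with GSI for B cells, and 4.79 and 4.75 with DMSO and 5.06 and 4.80 with GSI for macrophages. None of these 9 passed, and the macrophage marker Itgam had the largest difference (1.05; adjusted p = 0.0561). Their part in the Irf8 value was not tested.

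Irf1, a transcription factor gene induced early by interferon gamma, read 8.06 and 8.05 with DMSO and 8.42 and 8.15 with GSI. Both GSI arrays were higher, and the gap between them was wider than that from GSI replicate 2 to the DMSO arrays (0.23 ± 0.11 SE; adjusted p = 0.319). Cxcl10, a chemokine gene strongly induced by interferon gamma, was the only type II class gene with a negative difference. It read 3.59 and 3.71 with DMSO and 3.39 and 3.59 with GSI (-0.16 ± 0.11 SE; adjusted p = 0.442), below the median probe set value.

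Dim probe sets made up 10 of the 36 genes, 8 of the type I class and 2 of the type II class. Here the mean over the 4 arrays was taken against the median probe set value of 4.88, and 7224 of all 18193 genes lay below it. Among the 26 brighter genes the median difference was 0.18, and it was 0.02 among the 10 dimmer ones. By class, the 20 brighter type I genes had a median of 0.05 and the 6 brighter type II genes 0.43, and all 6 of the latter had a higher mean with GSI. Over the 10969 brighter genes of the series the median was -0.01, and 48.8% had a higher mean. With an unadjusted p below 0.05, 15.6% of these were higher and 14.0% lower. Of the 26 brighter genes of the list 10 were higher (38.5%) and 2 lower (7.69%).

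The arrays of a group differed from each other in these genes as well. DMSO replicate 2 lay below DMSO replicate 1 in 25 of the 36 (55.1% of all genes), with a median difference of -0.12. GSI replicate 2 lay below GSI replicate 1 in 24 (53.6% of all genes), with a median of -0.10. The medians over all genes were -0.02 and -0.01. In 20 of the 36 replicate 2 was lower in both groups, compared with 29.1% of all genes, and Usp18 had the largest gaps. The median over the list of 0.09 between GSI and DMSO was no larger in size than these medians within a group. That 0.09 compares means of 2 arrays, while the medians within a group compare single arrays, so the measures are unlike. Between single arrays of the same number, the median of GSI minus DMSO was 0.18 for replicate 1 and 0.07 for replicate 2. For the type II class the medians within groups were -0.12 with DMSO and -0.19 with GSI, beside 0.30 between the groups. That 0.30 was 0.16 without GSI replicate 1, 0.17 with every probe set tested and 0.19 with probe sets averaged. It was 0.43 with dim genes left out and without GSI replicate 2, and 0.26 to 0.33 under the other settings. The lower values are close to the size of the within-group median with GSI or below it, but that median compares single arrays. The labels give no batch, and what sets the replicates apart was not tested.

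**Figure D3:**
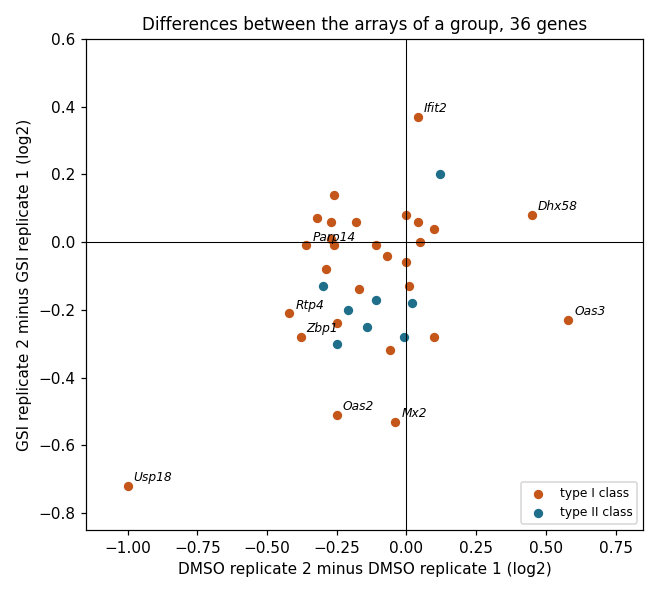
Difference between the 2 DMSO arrays (x axis, replicate 2 minus replicate 1, log2) and between the 2 GSI arrays (y axis, same direction, log2) for the 36 genes, coloured by class. Most points lie in the lower left, where replicate 2 was lower in both groups (20 of 36), with Usp18 farthest out.

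Further genes of the pathway were taken from 6 lists, chosen like the members with earlier results of these data known. Their counts beside all genes are a description. Of 10 measured ligand and receptor genes 4 rose and 0 fell (2.56% and 1.56% of all genes), the receptor chains Ifnar1, Ifnar2, Ifngr1 and Il10rb, the last a shared chain of the interleukin-10 and interferon lambda receptors. Ifngr1 read 7.79 and 8.05 with DMSO and 8.88 and 8.67 with GSI (0.85 ± 0.13 SE; 1.81-fold; limma, adjusted p = 0.0295). Ifnar1 and Ifnar2 were higher by 0.59 ± 0.09 and 0.60 ± 0.09 (adjusted p = 0.0270 and 0.0278), and Il10rb by 1.54 ± 0.11 (adjusted p = 0.00402). With its 2 probe sets averaged Il10rb was higher by 0.95 (adjusted p = 0.0107). With all probe sets tested singly, those standing for Ifnar1, Ifnar2 and Ifngr1 had adjusted p of 0.0535, 0.0540 and 0.0526. With the replicate number as a block Ifnar1, Ifnar2 and Ifngr1 did not pass (adjusted p = 0.0848, 0.0804 and 0.102), and Il10rb did (0.0322). With 1 array left out Ifnar1 was higher by 0.55 to 0.63 and Ifnar2 by 0.55 to 0.66. Ifngr1 was then higher by 0.72 to 0.99 and Il10rb by 1.42 to 1.65. The ligand genes Ifnb1, Ifna4, Ifna2 and Ifng lay below the median probe set value on all arrays and differed by -0.04 to 0.12.

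Of 9 kinases, STATs and inhibitors of the signal 0 passed in limma. With an unadjusted p below 0.05, 5 were higher and 0 lower (55.6% and 0.0%), where all genes gave 10.8% and 10.7%. All 9 reached the median probe set value, and of all genes that did so 15.6% were higher and 14.0% lower. The smallest p of the 9 was that of Jak2, a kinase of the type II receptor beside JAK1 (0.51 ± 0.10 SE, limma, adjusted p = 0.0588). Of 14 genes of sensing and induction 0 passed, and 2 were higher and 2 lower with an unadjusted p below 0.05 (14.3% each), near the 10.8% and 10.7% of all genes. The smallest p there belonged to Tlr7, a receptor for single-stranded RNA (-0.34; adjusted p = 0.107), whose sign turned as the mean of its probe sets (0.03).

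Of 30 other interferon-stimulated genes 5 rose (16.7%; 2.56% of all genes) and 0 fell (1.56% of all genes). Epsti1, known from epithelial-stromal interaction, rose by 1.01 ± 0.10 on the log2 scale (adjusted p = 0.0100), or by 0.59 with its 4 probe sets averaged (adjusted p = 0.0319). Uba7, encoding the activating enzyme for ISG15, rose by 0.89 ± 0.10 (adjusted p = 0.0121). The nuclear body gene Sp100 rose by 0.88 ± 0.14 (adjusted p = 0.0333) and Lgals9, encoding galectin-9, by 0.70 ± 0.08 (adjusted p = 0.0148). Trim21, the cytosolic antibody receptor, is the fifth (0.62 ± 0.10; adjusted p = 0.0326) and was named after its value was seen. With all probe sets tested singly, Sp100 and Trim21 missed the threshold (adjusted p = 0.0576 and 0.0615). With the replicate number as a block Epsti1 passed (0.046), and Uba7, Sp100, Lgals9 and Trim21 did not (0.0598 to 0.109). With 1 array left out the 5 differences ranged from 0.53 (Trim21) to 1.12 (Epsti1). Across this list the median was 0.05, as in the type I class.

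Of 11 further class I presentation genes 0 passed, and the median was -0.01. With an unadjusted p below 0.05, 2 were higher and 0 lower (18.2% and 0.0%, beside 10.8% and 10.7% of all genes). All 11 reached the median probe set value, and of all genes that did so 15.6% were higher and 14.0% lower. Psme1, a proteasome activator subunit, had the smallest p (0.29; adjusted p = 0.121). The heavy chain genes H2-K1 and H2-D1, whose probe sets can bind related class I genes, differed by -0.29 and -0.04. Of 6 class II presentation genes 0 passed and 0 had an unadjusted p below 0.05, and H2-Ab1 had the smallest p. It read 7.59 and 8.05 with DMSO and 7.32 and 7.53 with GSI (-0.39; adjusted p = 0.259), and the difference was -0.62 without DMSO replicate 1 and -0.16 without DMSO replicate 2. Thus the higher means of Tapbp, Tap2 and Tap1 were not accompanied by a higher median over the other measured presentation genes.

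**Figure D4:**
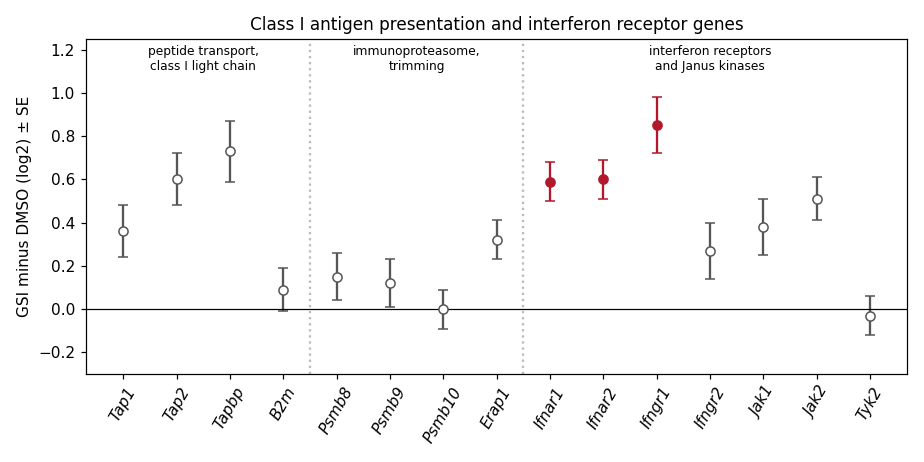
Difference GSI minus DMSO (y axis, log2) with its moderated SE (bars) for genes of class I peptide loading, of the immunoproteasome and peptide trimming, and of interferon receptors and Janus kinases (x axis). Filled red points passed at an adjusted p under 0.05: Ifnar1 (0.59), Ifnar2 (0.60) and Ifngr1 (0.85); Tapbp (0.73) and Tap2 (0.60) did not, and Psmb8 and Psmb9 lie at 0.15 and 0.12.

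Of 7 measured T lineage markers, 5 had a mean above the median probe set value, a level that 10969 of all 18193 genes reached. Cd2 and Cd5 lay below it. Cd2 read 4.79 and 4.35 with DMSO and 3.79 and 3.78 with GSI (-0.79, limma, adjusted p = 0.052). Cd5 differed by 0.44 (adjusted p = 0.0855). Cd3g read 12.17 with DMSO and 11.70 with GSI on both arrays of each group (adjusted p = 0.0409), and Thy1 read 11.88 and 11.80 with DMSO and 12.42 and 12.31 with GSI (adjusted p = 0.0409). All 3 measured natural killer cell markers lay below the median probe set value and did not pass. Of 5 stromal markers Pecam1 rose by 0.64 and Pdgfrb fell by 1.28 on the log2 scale. Pdgfrb, Pecam1 and Epcam had means above the median probe set value (8.69, 6.92 and 5.66 with DMSO). The collagen genes Col1a1 and Col1a2 stayed below it.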

How the data were processed

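Total RNA of 4 T29 samples was measured on Affymetrix mouse arrays. The authors deposited 1 log2 expression value per probe set and array, made with RMA per the submitters' processing notes. Which RMA release was run, and how, is not given in the sources used here, and without probe-level files background and detection could not be examined. For arrays, the number of samples limits the precision.

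Of 45101 probe sets, 64 controls were left out. Of the other 45037, 34945 had 1 gene symbol, 932 several and 9160 none. Gene identifiers gave current symbols from RefSeq GRCm38.p6 (34741 of 34945 found), which was used for names, gene order and promoters only. The 36 measured members had 62 probe sets, and 16 members had more than 1.

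GSI was compared with DMSO by limma 3.58.1 in R 4.3.3 (lmFit, eBayes, two-sided, 5.80 total degrees of freedom), with group as the only term and Benjamini-Hochberg adjustment over 18193 genes. The fit was tested on simulated data.

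The members, classes, motifs and lists were chosen with earlier results of these data known. Values on each array are given for members that passed, had an unadjusted p under 0.05 or had disagreeing probe sets, and for the uncalled members with the largest difference in each direction per class. A few others (Mx2, Ifit2, Usp18, Irf1, Isg15) were added after their values were seen. From each related list up to 4 called genes, or the gene with the smallest p, are named; other genes of these lists were chosen after their values were seen. Alternatives were every probe set, probe set means, dim genes left out, trend and robust prior, centring, cyclic loess, replicate number as a block and each array left out.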

Additional observations from a re-analysis of the deposited data

How the results depend on the processing

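Upwards 466 genes and downwards 284 genes passed, 899 and 685 with genes under the median probe set value left out, 1042 and 899 with the trend and robust prior, and 147 and 70 with the replicate number as a block. Leaving out 1 array left 0 to 1 higher and 0 to 5 lower. Of the interferon-stimulated genes 2 were higher (Bst2 and Mx1) and 0 lower. The counts were 1 higher (Bst2) with every probe set tested, 4 higher and 1 lower with probe set means, 7 higher with dim genes left out, 7 higher and 1 lower with the trend and robust prior, and 5 higher with centred arrays and with cyclic loess. In the block fit 0 were higher (adjusted p = 0.0598 for Bst2 and 0.104 for Mx1). Of the related lists 9 genes were higher, 14 with dim genes left out, 17 with the trend and robust prior and 2 with the replicate block. Fits with 1 array left out cannot judge these counts, since almost no gene of the series passed in them. The differences between replicates in the DMSO and GSI groups correlated at 0.0851 across all genes and at 0.368 across the 36 genes. The labels do not tie the numbers to cultures, and 2 pairs are too few to settle a pairing from the data. The median over the 36 genes (0.09) was 0.18 with dim genes left out and 0.01 to 0.18 with 1 array left out. That of the type I class (0.05) lay between -0.01 (without GSI replicate 1, where its sign turned) and 0.09. That of the type II class (0.30) was 0.17 with every probe set, 0.43 with dim genes left out, and 0.16 (without GSI replicate 1) to 0.43 (without GSI replicate 2). Fewer genes tested or fewer arrays are part of these settings by construction; for the others the cause was not tested. Signal over background was not available, so the sizes for the 10 dim genes are uncertain.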

Other observations

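The oligoadenylate synthetase cluster lies beside a gene that fell with the inhibitor. In the order of protein-coding genes in GRCm38.p6, Rasal1, Dtx1, Oas2 and Oas3 follow each other. Dtx1, a ubiquitin ligase gene regulated by Notch, read 9.60 and 9.38 with DMSO and 6.04 and 5.88 with GSI, and Rasal1, encoding a Ras GTPase-activating protein, read 6.84 and 6.85 with DMSO and 5.45 and 5.86 with GSI (limma, adjusted p = 0.000534 and 0.0167). Oas2, next to Dtx1, read 5.66 and 5.42 with DMSO and 5.62 and 5.12 with GSI, and Oas3 read 3.74 and 4.31 with DMSO and 4.22 and 3.98 with GSI. The arrays of the groups overlapped in both (adjusted p = 0.667 and 0.877). On the far side of Oas3 the copies Oas1e, Oas1c, Oas1f and Oas1h differed by -0.29 to 0.12 and did not pass. This stretch was looked at after the values of the Oas genes were seen.

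The IFIT genes lie beside Lipa, Ch25h and Fas in the same gene order. Fas, the death receptor gene, read 4.40 and 4.27 with DMSO and 5.32 and 4.91 with GSI (0.78 ± 0.15 SE; adjusted p = 0.0520), while Ifit2, Ifit3 and Ifit1bl1 differed by -0.31, 0.14 and -0.28. The neighbours of Tapbp did not share its difference either: Zbtb22 differed by 0.19 and Rgl2 by 0.15. Pfdn6 differed by -0.24 and Wdr46 by -0.45 ± 0.09 (SE, limma, adjusted p = 0.0608 for Wdr46). Like Tapbp itself, none of the measured genes within 4 places on either side passed.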
